A study of Mus musculus with 77 samples.

Results

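The 10 genes described here belong to Norrin and Wnt signaling and to the blood-retina barrier, and their expression was followed in the mouse retina during and after oxygen-induced retinopathy (OIR). *Ndp* encodes the ligand Norrin, *Fzd4*, *Lrp5* and *Tspan12* encode parts of its receptor complex, *Sox17*, *Lef1*, *Axin2* and *Apcdd1* encode transcription factors and feedback genes of the pathway, and *Plvap* and *Mfsd2a* mark leaky and tight endothelium. They were chosen by name and represent 10 of 21154 genes with a symbol on the array, with 14 of its 55681 probes.

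Norrin is secreted in the retina by Mueller glia and acts on endothelial cells, where Frizzled 4, its co-receptor LRP5 and the tetraspanin TSPAN12 pass the signal to beta-catenin. Beta-catenin then acts in the nucleus together with factors of the TCF/LEF family, to which LEF1 belongs. The pathway is known to be needed for the growth of the deep retinal vessels and for the barrier function of their endothelium, and its loss causes familial exudative vitreoretinopathy and Norrie disease in humans.

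Retinal RNA of 77 C57BL/6 mice was measured on 77 arrays, each with the pooled retinas of a single animal. The OIR group was kept in hyperoxia (75% oxygen) from postnatal day 7 (P7) to day 12 (P12) and then returned to room air, whereas the control group was kept in normoxia (21% oxygen). Tissue was collected from 13 OIR and 12 control mice on P12, from 13 and 12 on P17, and from 13 and 14 on P28. Whole litters were randomized to an oxygen level, and the litter of each mouse is not given, so that no litter effect was fitted. In this model vessels are lost in hyperoxia, new vessels are most abundant around P17, and they have largely, though not fully, regressed by P28.

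On each 2-color array the retina was set against a common reference RNA, and levels are given as log2 retina over reference. The sample labels put the retina in Cy5. However, the rod genes *Sag*, *Gnat1*, *Pde6b*, *Pde6g* and *Nrl* were brighter in Cy3 on every array, with a lowest Cy3 to Cy5 log2 ratio of 3.60 for *Pde6g*, so Cy3 was taken as the retina and the direction of the labels was not followed. An offset of 50 was added to both channels, which pulls the ratios of dim probes towards 0, so that a fold change on this scale understates the change of a dim gene. Levels can be set against each other between mice for the same gene only, not between genes. Between mice they also shift with the scan day, as described next.

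The arrays were placed on 11 slides scanned on 4 days, and those of 1 scan day stood apart. Its 4 slides with 32 arrays had 32047 probes above background in the Cy3 channel at the median, against 19939 on the 45 arrays of the other scan days. Its 20 arrays of P28 had 30823 to 34319 such probes and its 12 arrays of P12 and P17 had 20924 to 29963, against 16895 to 20975 on 7 arrays of P28 and 13782 to 24719 on 38 arrays of P12 and P17 on the other scan days. This scan day held 11 of 13 OIR and 9 of 14 control arrays of P28, but 2 of 13 OIR and 3 of 12 control arrays of P12, and 2 of 13 OIR and 5 of 12 control arrays of P17. *Ndp*, *Fzd4*, *Tspan12*, *Sox17*, *Axin2*, *Apcdd1* and *Plvap* had higher ratios there in all 6 groups, and *Lrp5* and *Lef1* lower ratios in all 6. For *Tspan12* the mean on this scan day was 0.51 to 1.10 above that on the other days, depending on the group. Therefore values with the slide as a block, or by scan day, are given beside several of the results they bear on, though not beside all.

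The ligand gene *Ndp* was measured well above background on 68 of 77 arrays. On P12 its log2 ratio was between 0.041 and 1.15 with a median of 0.34 in OIR mice, and between 0.15 and 1.29 with a median of 0.37 in control mice. On P17 it was between 0.068 and 1.17 with a median of 0.26 in OIR mice, and between 0.079 and 1.58 with a median of 0.43 in control mice. On P28 it was between 0.23 and 1.52 with a median of 1.02 in OIR mice, and between 0.34 and 1.12 with a median of 0.92 in control mice. The OIR and control ranges overlapped on each day. The OIR effect on *Ndp* was −0.088 ± 0.13 (SE) on P12, −0.24 ± 0.16 on P17 and 0.10 ± 0.13 on P28, and it was not differentially expressed on any day in the limma test (adjusted p = 0.9997, 0.636 and 0.799). The P17 difference was −0.080 with the slide as a block, 0.0056 over the brightest scan day and −0.030 over the others. On P28 the sign of the OIR effect turned in 4 of 14 alternative fits, among them that on the deposited ratios (−0.36). The group means were highest on P28, but the difference between control mice of P28 and P17 was 0.21 ± 0.14 (adjusted p = 0.383), within the spread of the mice.

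Of the receptor genes, *Fzd4* encodes the receptor that binds Norrin. Its mean log2 ratio was lowest in OIR mice of P12, at 0.17 ± 0.15 (SD, n = 12, since the value of 1 mouse was an outlier spot and was left out), and highest in OIR mice of P28, at 0.52 ± 0.23 (n = 13). The control means were 0.22 ± 0.12 on P12 (n = 12), 0.38 ± 0.19 on P17 (n = 12) and 0.41 ± 0.13 on P28 (n = 14). OIR mice of P17 lay between, at 0.42 ± 0.17 (n = 13). Neighboring groups in this order overlapped widely. The OIR effect on *Fzd4* was −0.051 ± 0.054 (SE) on P12, 0.035 ± 0.070 on P17 and 0.11 ± 0.069 on P28, and it did not pass the test on any day (adjusted p = 0.9997, 0.873 and 0.697). From P12 to P17 the ratio in control mice differed by 0.16 ± 0.068, which did not pass the adjustment either (adjusted p = 0.415), although 10 of 12 control mice of P17 lay above the control median of P12.

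*Lrp5*, the co-receptor, was well above background on all 77 arrays. Its control means were 0.0098 ± 0.38 (SD, n = 12) on P12, −0.14 ± 0.35 (n = 12) on P17 and −0.40 ± 0.30 (n = 14) on P28. Its OIR means, of 13 mice each, were 0.036 ± 0.37, 0.13 ± 0.36 and −0.51 ± 0.31. The largest OIR difference was on P17, with 0.27 ± 0.14 (SE), where 8 of 13 OIR mice lay above the highest control mouse, but the adjusted p was 0.515. With the slide as a block this difference was 0.17 (adjusted p = 0.607), and it was above 0 on 6 of 6 slides with both groups. Over the brightest scan day, with 2 OIR and 5 control arrays on different slides in part, it was −0.16, and over the other scan days 0.22 (adjusted p = 0.9998 and 0.348, limma). Its P12 difference was 0.026 ± 0.15 and its P28 difference −0.10 ± 0.11, both well within the spread of the mice. In the reference channel, which held the same RNA on each array, *Lrp5* differed by 0.19 on P17 and by −0.31 on P28 without passing the test.

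*Tspan12* encodes the tetraspanin that strengthens the Norrin signal at the receptor. It had a mean of 0.49 ± 0.39 (SD) in 13 OIR mice and 0.77 ± 0.54 in 12 control mice of P12, of 0.72 ± 0.44 in 13 OIR mice and 0.86 ± 0.70 in 12 control mice of P17, and of 1.02 ± 0.37 in 13 OIR mice and 0.76 ± 0.28 in 14 control mice of P28. The OIR differences were −0.28 ± 0.18 (SE) on P12, −0.14 ± 0.22 on P17, but 0.26 ± 0.12 on P28 (adjusted p = 0.9997, 0.844 and 0.665). The P12 difference was below 0 on 7 of 7 slides that held both groups, from −0.58 to −0.0097 with a median of −0.066. On the brightest scan day the P12 means were 1.13 in 2 OIR and 1.46 in 3 control mice. On the other scan days they were 0.38 in 11 OIR and 0.54 in 9 control mice. The P28 difference was above 0 on 3 of 3 slides, from 0.087 to 0.36. On P17 the sign turned in 8 of 14 alternative fits, among them that with the slide as a block (0.042). The change of the effect from P17 to P28, 0.40 ± 0.26, was tested in the model of all groups and was not significant (adjusted p = 0.442). Its sign turned in 1 of 13 alternative fits, that on the scan days other than the brightest, where OIR and control arrays of P28 were read on different days.

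On P12, 0 of the 10 genes were differentially expressed between OIR and control mice, where 13 of 55681 probes passed the adjustment (0.0233%), all of them underexpressed. By an unadjusted p below 0.05, 1 of the 10 genes differed, against 3.12% of all probes. With 1 probe for each gene, as for the 10, the share was 3.24% of all 21154 genes. In the ratios as deposited by the authors, 39 probes passed (0.07%) and 1 of the 10 genes was among them. That gene was *Mfsd2a* in both counts, and it is described with the barrier genes.

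Of the pathway's transcription factors, *Sox17* is an endothelial factor of arteries. Its brighter probe was well above background on 0 of 13 OIR arrays and 2 of 12 control arrays of P12, on 2 of 13 and 4 of 12 arrays of P17, and on 11 of 13 and 9 of 14 arrays of P28. On P12 it was thus not measured on most arrays of either group, and the fitted difference of the ratios, −0.069 ± 0.037 (adjusted p = 0.9997), does not give the size of a change. The differences on P17 (−0.092 ± 0.067) and P28 (0.081 ± 0.043) did not pass the test, and the other probe of *Sox17* gave −0.067, −0.10 and 0.063 for the 3 days. By scan day the P17 means of the brighter probe lay closer together. They were 0.35 in 2 OIR and 0.37 in 5 control mice on the brightest scan day. On the other scan days they were 0.076 in 11 OIR and 0.094 in 7 control mice.

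*Lef1* encodes a nuclear partner of beta-catenin and is itself a target gene of the pathway. In OIR mice its log2 ratio was between −1.54 and −0.47 with a median of −1.19 on P12, between −1.10 and −0.43 with a median of −0.58 on P17, and between −1.89 and −0.47 with a median of −1.47 on P28. In control mice it was between −1.45 and −0.65 with a median of −0.96 on P12, between −1.42 and −0.29 with a median of −1.04 on P17, and between −1.85 and −0.97 with a median of −1.44 on P28. The groups overlapped on each day, but on P17, 12 of 13 OIR mice lay above the control median.

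The P17 difference of *Lef1* was 0.36 ± 0.10 (SE, 95% interval 0.15 to 0.58), with p = 0.00163 and an adjusted p of 0.0997, so that it missed the threshold. Its other probe gave 0.35 ± 0.12 (adjusted p = 0.219). With the slide as a block the difference was 0.34 (adjusted p = 0.0513), and it was above 0 on 5 of 6 slides with both groups. In the ratios as deposited it was 0.62 and passed the adjustment (adjusted p = 0.0245). It also passed with an offset of 0, in the retina channel alone, with array weights and with the scan day as a block. Within either set of scan days alone, the P17 difference of *Lef1* did not pass. Arrays of the brightest scan day had P17 means of −0.71 for 2 OIR mice and −1.22 for 5 control mice. For the other scan days the means lay closer together, at −0.60 for 11 OIR mice and −0.81 for 7 control mice. On P12 and P28 the differences of *Lef1* were −0.066 ± 0.12 and 0.018 ± 0.13. The other probe of *Lef1* had the opposite sign on these days, 0.12 and −0.11.

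The change of the OIR effect on *Lef1* from P12 to P17 was 0.43 ± 0.17 and was not significant (adjusted p = 0.711), where 0.48% of 55681 probes passed and 0 of the 10 genes did. A fit with the slide as a block gave 0.46 ± 0.11 (adjusted p = 0.00939). That fit called 524 probes (0.941%) and 1 of the 10 genes, and the change also passed in 6 other of the alternative fits. The dimmer probe of *Lef1* gave a change of 0.23 ± 0.19 without the block. The change from P17 to P28 was −0.35 ± 0.17 (adjusted p = 0.344), where 0.278% of 55681 probes passed and 0 of the 10 genes did. Of 14 alternatives for *Lef1*, this change passed in 1 and turned its sign in 1, that on the scan days other than the brightest. At an unadjusted p below 0.05, 2 of the 10 genes differed in the first of these changes (4.86% of all probes, 6.88% of all 21154 genes). In the second, 5 did (14% of all probes, 17.6% of all genes).

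*Axin2* and *Apcdd1*, which encode feedback inhibitors of Wnt signaling, were dim. *Axin2* was well above background on 33 and *Apcdd1* on 34 of 77 arrays, most of them of P28, and on the other arrays little can be said of their level. Their OIR differences ranged from −0.039 ± 0.038 for *Axin2* on P17 to 0.12 ± 0.052 for *Axin2* on P28. The latter had an unadjusted p of 0.0346 and an adjusted p of 0.661. For *Apcdd1* the differences were −0.011 ± 0.053, −0.034 ± 0.031 and 0.075 ± 0.050 on P12, P17 and P28. Neither gene was differentially expressed between OIR and control mice on any day. On P12 the sign turned in 11 of 15 alternatives for *Axin2* and in 6 of 14 for *Apcdd1*.

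*Plvap* encodes a protein of the diaphragms of fenestrated, permeable endothelium and is absent from a mature barrier. In OIR mice its log2 ratio was between 0.031 and 0.41 with a median of 0.16 on P12, between 0.41 and 1.03 with a median of 0.55 on P17, and between 0.22 and 1.01 with a median of 0.67 on P28. In control mice it was between −0.064 and 0.45 with a median of 0.25 on P12, between −0.100 and 0.67 with a median of 0.32 on P17, and between 0.48 and 0.90 with a median of 0.69 on P28. On P17 all 13 OIR mice lay above the control median, and 1 of 13 lay above the highest control mouse, so the ranges still overlapped.

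*Plvap* was overexpressed in OIR mice on P17 by 0.29 ± 0.068 (SE, 95% interval 0.14 to 0.43, adjusted p = 0.0352), and it was the only 1 of the 10 genes to pass on that day, where 631 of 55681 probes passed (1.13%). By an unadjusted p below 0.05, 3 of the 10 genes differed, against 10.4% of all probes and 15.9% of all 21154 genes. The size was the same with the slide as a block, 0.29 ± 0.072, but the adjusted p was 0.0608, and 0 of the 10 genes then passed among 832 probes called (1.49%). The difference was above 0 on 5 of 6 slides with both groups, from −0.024 to 0.58. It was 0.44 over the brightest scan day and 0.28 over the others (adjusted p = 0.98 and 0.0536, limma). In the deposited ratios, where 1471 probes passed (2.64%), the difference was 0.71 (adjusted p = 0.0405), and *Plvap* and *Lef1* passed.

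A dimmer second probe of *Plvap*, well above background on 37 of 77 arrays, gave 0.043 ± 0.028 on P17 and was not differentially expressed (adjusted p = 0.615). On P12 and P28 the OIR differences of *Plvap* were −0.018 ± 0.058 and 0.027 ± 0.064, and that of P12 turned its sign in 9 of 15 alternatives. The change of the effect was 0.30 ± 0.093 from P12 to P17 (adjusted p = 0.223) and −0.26 ± 0.091 from P17 to P28 (adjusted p = 0.249). Both passed in the retina channel alone (0.55 and −0.66, adjusted p = 0.0137 and 0.00236), and the second also with an offset of 0. In the reference channel *Plvap* differed by 0.014 on P17.

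*Mfsd2a* encodes a lipid transporter of barrier endothelium that keeps transcytosis low. In OIR mice its log2 ratio was between −0.035 and 0.50 with a median of 0.13 on P12, between −0.092 and 0.58 with a median of 0.11 on P17, and between 0.0054 and 0.60 with a median of 0.21 on P28. In control mice it was between 0.20 and 1.17 with a median of 0.36 on P12, between −0.043 and 1.06 with a median of 0.31 on P17, and between −0.13 and 0.35 with a median of 0.093 on P28. On P12, 9 of 13 OIR mice lay below the lowest control mouse and 12 of 13 below the control median, and none lay above the highest control mouse.

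The P12 difference of *Mfsd2a* was −0.35 ± 0.094 (SE, 95% interval −0.54 to −0.16). Its unadjusted p was 0.00107, but the adjusted p was 0.9997. It was below 0 on 7 of 7 slides with both groups, from −0.61 to −0.19, and −0.28 with the slide as a block (adjusted p = 0.175). In the deposited ratios it was −0.74 and passed the adjustment (adjusted p = 0.0266), and in the retina channel alone it was −0.52 (adjusted p = 0.000599). On P17 the difference was −0.27 ± 0.11 (adjusted p = 0.358). It was below 0 on 6 of 6 slides with both groups, with a median of −0.16, and −0.20 with the slide as a block, −0.25 over the brightest scan day and −0.10 over the others, whereas on P28 it was 0.11 ± 0.054 (adjusted p = 0.674) and above 0 on 3 of 3. The change from P17 to P28, 0.38 ± 0.13, did not pass the adjustment (adjusted p = 0.214).

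**Figure D1:**
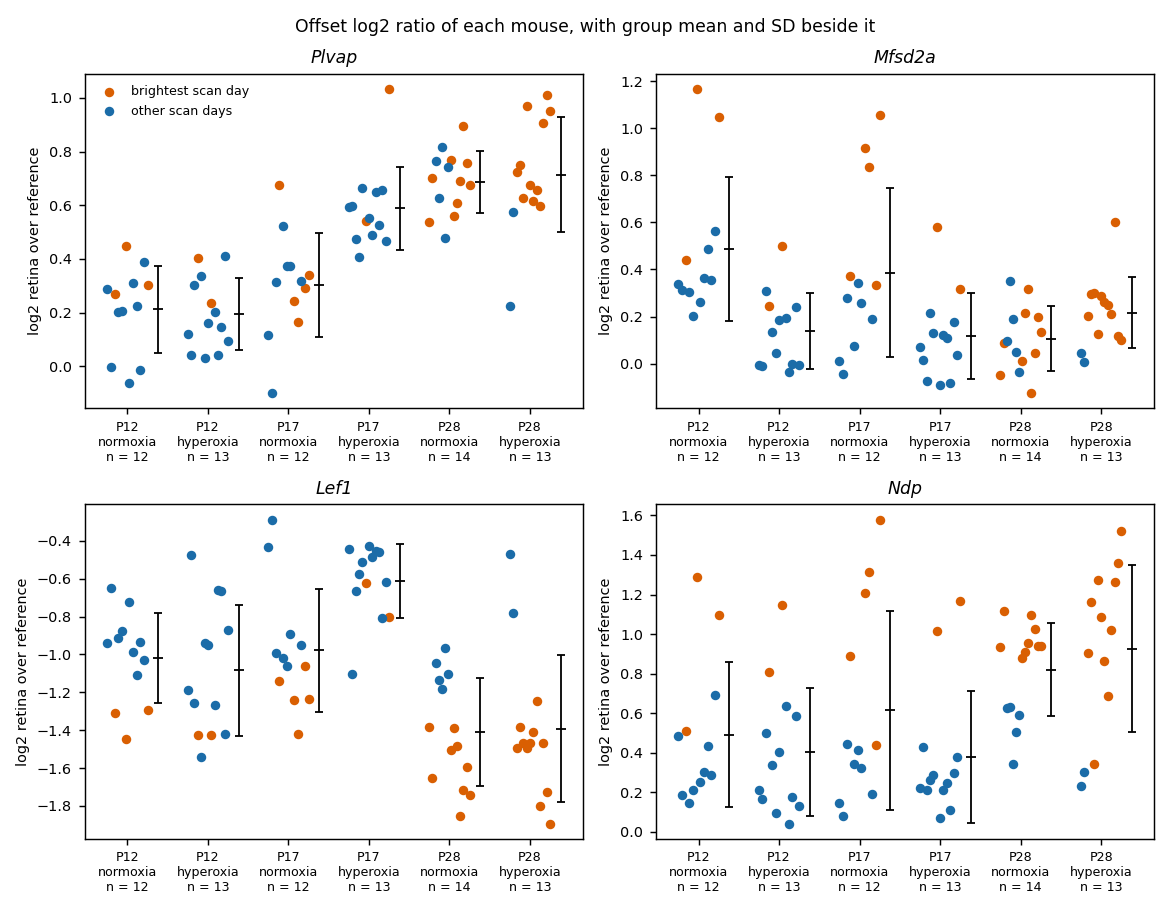
Each point is the log2 ratio of retina over reference of 1 mouse (vertical axis) in the 6 groups of day and oxygen (horizontal axis) for *Plvap*, *Mfsd2a*, *Lef1* and *Ndp*, colored by whether its slide was read on the scan day with the brightest retina channel, with the group mean and SD as a bar beside the points. On P17 all 13 OIR mice lay above the control median of *Plvap*, on P12 9 of 13 OIR mice lay below the lowest control mouse for *Mfsd2a*, and *Ndp* was higher on the brightest scan day in all 6 groups.

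On P28, 0 of the 10 genes were differentially expressed between OIR and control mice, where 34 of 55681 probes passed (0.0611%). By an unadjusted p below 0.05, 2 of the 10 genes differed, against 7.44% of all probes and 8.46% of all 21154 genes. They were *Tspan12* and *Axin2*, both higher in OIR mice. On slides with both groups, the P28 differences of *Fzd4*, *Sox17*, *Plvap* and *Axin2* were above 0 on 3 of 3, as those of *Tspan12* and *Mfsd2a* were. All 3 of these slides were of the brightest scan day. On the other scan days, the 2 OIR and 5 control arrays of P28 were read on different days as well as different slides. Oxygen and scan day cannot be told apart there. Over these arrays the P28 differences of *Fzd4* (−0.17), *Tspan12* (−0.12), *Sox17* (−0.027), *Axin2* (−0.061), *Plvap* (−0.29) and *Mfsd2a* (−0.10) were below 0. On these 7 arrays *Lef1* was higher in OIR mice by 0.46 and passed (adjusted p = 0.0233, limma), but the fit of these arrays called 4564 of 55681 probes (8.2%), against 34 with all arrays.

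The question of normal maturation was addressed in the control mice. Between P12 and P17, 714 of 55681 probes passed (1.28%), and 0 of the 10 genes were among them. At an unadjusted p below 0.05, 1 of the 10 genes, *Fzd4*, differed, against 8.21% of all probes and 11.3% of all 21154 genes. Between P17 and P28, 7435 of 55681 probes passed (13.4%), and 3 of the 10 genes were among them, with *Plvap* higher and *Lef1* and *Mfsd2a* lower on P28. Of all 21154 genes with 1 probe each, 2493 passed as higher and 1549 as lower. At an unadjusted p below 0.05, 4 of the 10 genes differed, *Apcdd1* being the other, against 26.5% of all probes and 34.1% of all genes. A fit with the slide as a block called 8065 probes (14.5%) and 3 of the 10 genes, again *Plvap*, *Lef1* and *Mfsd2a*. A share of 3 in 10 genes is too small a number to be set apart from this background.

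*Plvap* was higher in control mice of P28 than of P17 by 0.38 ± 0.064 (SE, adjusted p = 1.43e-05). All 14 mice of P28 lay above the median of P17 and 9 of 14 above its highest mouse. The slide as a block left 0.30 (adjusted p = 0.000216). It was also seen within the brightest scan day, 0.34 (adjusted p = 0.00715, limma), and within the other scan days, 0.41 (adjusted p = 0.00389, limma). The dimmer probe of *Plvap* gave 0.061 ± 0.028 and did not pass (adjusted p = 0.142).

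*Lef1* was lower in control mice of P28 than of P17 by −0.43 ± 0.12 (adjusted p = 0.00814), and 13 of 14 mice of P28 lay below the median of P17. Its dimmer probe gave −0.41 ± 0.13 and passed too (adjusted p = 0.0316), though not with the slide as a block (−0.20, adjusted p = 0.0653). With the slide as a block the difference of *Lef1* was −0.25 (adjusted p = 0.0191), within the brightest scan day −0.37 (adjusted p = 0.0049, limma) and within the other scan days −0.28 (adjusted p = 0.319, limma).

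*Mfsd2a* was lower by −0.28 ± 0.089 (adjusted p = 0.0253), with 12 of 14 mice of P28 below the median of P17. With the slide as a block the difference of *Mfsd2a* was −0.33 (adjusted p = 0.000466), and it was below 0 on 6 of 6 slides with both groups. So were the differences of *Tspan12* (−0.68 to −0.025) and *Lrp5* (−0.50 to −0.0021), which did not pass, while *Plvap* was above 0 and *Lef1* below 0 on 5 of 6. For *Mfsd2a* it was −0.61 within the brightest scan day (adjusted p = 0.000431, limma) but −0.030 within the other scan days (adjusted p = 0.877, limma). The brightest scan day held 5 control arrays of P17 and 9 of P28. With array weights the difference of *Mfsd2a* was −0.16 and did not pass (adjusted p = 0.0508).

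**Figure D2:**
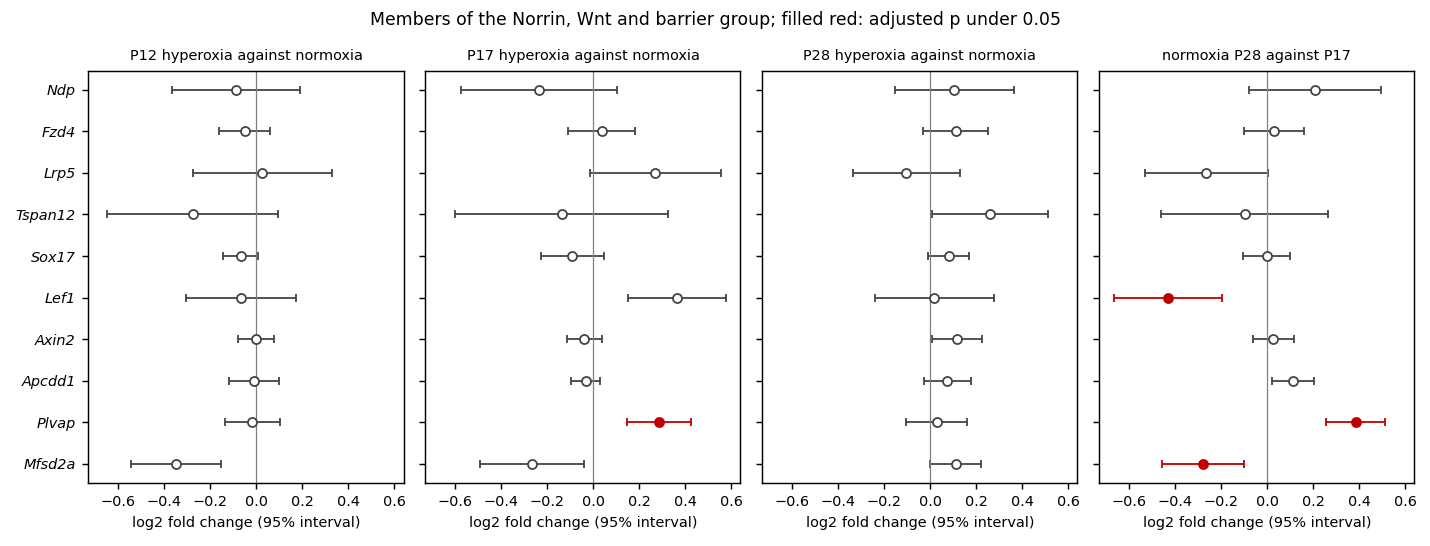
Log2 fold changes (horizontal axis) of the 10 genes (vertical axis), for OIR against control mice on each day and for control mice of P28 against P17, with points for the estimate and bars for its 95% interval. Filled red points passed the adjustment over all probes: *Plvap* on P17 (0.29), and *Plvap* (0.38), *Lef1* (−0.43) and *Mfsd2a* (−0.28) between control mice of P28 and P17.

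The order of the 6 group means differed between the genes. *Plvap* had its highest mean in OIR mice of P28 (0.71 ± 0.21, SD), followed by control mice of P28 (0.69 ± 0.12), OIR mice of P17 (0.59 ± 0.16), control mice of P17 (0.30 ± 0.19), control mice of P12 (0.21 ± 0.16) and OIR mice of P12 (0.19 ± 0.13). In this order only the step between OIR and control mice of P17 was large against the spread. *Lef1* was highest in OIR mice of P17 (−0.61 ± 0.20) and lowest in control mice of P28 (−1.41 ± 0.29), with both groups of P28 below all others and close to each other. *Mfsd2a* was highest in control mice of P12 (0.49 ± 0.31), followed by control mice of P17 (0.39 ± 0.36), and the means of the other 4 groups, between 0.11 and 0.22, did not differ beyond their spread. *Ndp*, *Fzd4*, *Tspan12*, *Sox17*, *Axin2* and *Apcdd1* all had their highest mean in OIR mice of P28, the group with the largest number of arrays from the brightest scan day, and *Lrp5* its lowest.

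Other genes of the pathway were counted in lists, chosen by name, with 1 probe for each gene. Of 13 ligand genes, 16 receptor genes, 15 intracellular genes, 17 targets and inhibitors, and 22 genes of barrier junctions and transporters, none was differentially expressed between OIR and control mice on P12 or P28 in the limma test. Unadjusted p-values below 0.05 were found for 6 of 22 barrier genes on P12, 6 of 22 on P17 and 8 of 22 on P28, against 3.24%, 15.9% and 8.46% of all 21154 genes. On these days they were found for 0, 3 and 2 of 13 ligand genes, 0, 5 and 0 of 16 receptor genes, 1, 1 and 0 of 15 intracellular genes and 0, 2 and 1 of 17 targets and inhibitors. On P17 the only gene to pass was *Ccnd1*, a cell cycle gene and Wnt target, which was overexpressed in OIR mice by 0.55 ± 0.13 (adjusted p = 0.0395). It did not pass in the deposited ratios (0.76, adjusted p = 0.104), in the retina channel alone, with sex as a covariate or within either set of scan days. The median log2 fold change of the lists on P17 lay between −0.072 for the barrier genes and 0.020 for the receptors, against −0.0027 over all 21154 genes. On P12 it lay between −0.072 for the barrier genes and 0.050 for the intracellular genes, against −0.0016. On P28 it lay between −0.066 for the intracellular genes and 0.13 for the barrier genes, against 0.0034. These medians are without the slide as a block.

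Among the bright genes of these lists that did not pass on P17 were the glucose transporter gene *Slc2a1* (0.33 ± 0.12, adjusted p = 0.272, but 0.42 and 0.00819 with the slide as a block), the secreted inhibitor gene *Dkk3* (−0.31 ± 0.16, adjusted p = 0.507), the receptor genes *Fzd10* (−0.35 ± 0.21, adjusted p = 0.57) and *Lrp6* (0.14 ± 0.11, adjusted p = 0.68), and the ligand genes *Wnt5a* (−0.068 ± 0.049, adjusted p = 0.654) and *Wnt5b* (0.020 ± 0.094, adjusted p = 0.955). The junction gene *Cldn12*, also among the bright barrier genes, went the other way than *Slc2a1*. It differed by −0.35 ± 0.15 (adjusted p = 0.379, and −0.23 and 0.149 with the slide as a block). *Slc2a1* differed by −0.21 ± 0.11 on P12 (adjusted p = 0.9997) and by 0.39 ± 0.092 on P28 (p = 0.000224, adjusted p = 0.149), and the change of its OIR effect from P12 to P17 was 0.54 ± 0.16 (adjusted p = 0.161, but 0.63 and 0.000624 with the slide as a block). The OIR effect on *Slc22a8*, an organic anion transporter of the barrier, was the only 1 of these lists to change between days without the block. It rose by 0.24 ± 0.057 from P17 to P28 (adjusted p = 0.0279), with the probe well above background on 29 of 77 arrays. It did not pass with an offset of 0, in the deposited ratios, in the retina channel alone or on the brightest scan day only, and turned to −0.021 on the other scan days.

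Between control mice of P17 and P28, the lists moved in both directions. Of 15 intracellular genes 4 were higher and 2 lower on P28, among them *Axin1* (0.46 ± 0.076, adjusted p = 1.22e-05), a scaffold of the complex that degrades beta-catenin, and *Gsk3b* (−0.58 ± 0.10, adjusted p = 3.07e-05), a kinase of the same complex. Of 16 receptor genes 1 was higher and 3 lower, with *Fzd2* at −0.70 ± 0.22 (adjusted p = 0.0233) and *Lrp6* at −0.56 ± 0.12 (adjusted p = 0.000542). The only ligand gene of 13 to pass was *Wnt5a*, at −0.44 ± 0.062 (adjusted p = 3.97e-07). Of 17 targets and inhibitors 3 were lower and none was higher, *Myc* (−0.81 ± 0.27, well above background on 27 of 77 arrays), *Sfrp2* (−0.58 ± 0.18, on 35 arrays) and *Tnfrsf19* (−0.16 ± 0.042). Of 22 barrier genes 2 were higher and 4 lower, with *Slc16a1* at −0.37 ± 0.12, *Slc2a1* at −0.34 ± 0.11, *Foxf2* at −0.33 ± 0.096 and *Cgn* at 0.28 ± 0.10. With the slide as a block, *Fzd2* was at −0.37 (adjusted p = 0.00539), *Myc* at −0.40 (adjusted p = 0.0127) and *Sfrp2* at −0.34 (adjusted p = 0.00388). *Foxf2*, *Cgn* and the receptor gene *Adgra2* (−0.31 ± 0.089) did not pass with the slide as a block (adjusted p = 0.084, 0.0577 and 0.0955). Over all 21154 genes, 2493 were higher and 1549 lower.

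As the pathway acts in endothelial cells, a list of 16 endothelial marker genes was set beside it. Its mean log2 ratio per mouse was between −0.084 and 0.079 in OIR mice of P12, with a median of −0.014, and between 0.12 and 0.47 in control mice of P12, with a median of 0.21, so that these groups did not overlap. On P17 it was between 0.34 and 0.92 in OIR mice, with a median of 0.55, and between 0.080 and 0.53 in control mice, with a median of 0.26. On P28 it was between 0.065 and 0.38 in OIR mice, with a median of 0.26, and between 0.075 and 0.27 in control mice, with a median of 0.15.

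Of the 16 endothelial genes, 2 passed on P12, *Egfl7* (−0.86 ± 0.095, adjusted p = 7.68e-05) and *Cd34* (−0.81 ± 0.11, adjusted p = 0.00111), and 3 passed on P17, *Cd34* (1.33 ± 0.11), *Egfl7* (1.09 ± 0.092) and *Eng* (0.59 ± 0.081). The median log2 fold change over the 16 genes was −0.17 on P12, with 10 of 16 at an unadjusted p below 0.05, and 0.061 on P17, with 6 of 16 (3.24% and 15.9% of all genes). The list was chosen with earlier results of these data known. The authors name *Cd34*, *Robo4* and *Ptprb* of it among their top downregulated genes of P12. The P12 count and the gap between the P12 groups are thus not an independent test. Fewer endothelial cells and less RNA per cell cannot be told apart in RNA of the whole retina, and the part of the endothelial share in the values of the 10 genes was not tested.

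Other markers moved in OIR mice of P17 as well. Of 9 genes of mural cells, which surround the vessels, *Cspg4* (0.73 ± 0.16) and *Notch3* (0.63 ± 0.14) passed, and the mean of the list was −0.26 ± 0.15 (SD) in 13 OIR mice and −0.61 ± 0.17 in 12 control mice. Of 8 genes of Mueller glia, the source of Norrin, *Vim* was overexpressed (1.19 ± 0.097) and *Car2* underexpressed (−0.65 ± 0.15), while the median log2 fold change of the 8 was −0.39. The astrocyte gene *Gfap* was higher by 0.97 ± 0.10, while the median of the 5 astrocyte genes was −0.0058. Of 6 genes of microglia and macrophages, *Csf1r* (0.51 ± 0.099) and *Aif1* (0.33 ± 0.052) passed. The red blood cell gene *Hba-a1* was higher by 1.38 ± 0.25 (adjusted p = 0.00264, and 0.0507 with the slide as a block). On P12 the mural gene *Abcc9* was lower by −0.37 ± 0.048, and on P28 *Csf1r* was higher by 0.41 ± 0.077. Their part in the values of *Plvap* and *Lef1* was not tested.

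Tissue beside the retina also varied. *Rpe65* of the pigment epithelium was lower by −0.81 ± 0.19 in OIR mice of P17 (adjusted p = 0.0322, and 0.0787 with the slide as a block), and the mean of 8 pigment epithelium genes was 0.44 ± 0.24 (SD) in OIR and 0.71 ± 0.36 in control mice. The mean of 6 lens genes ranged from 0.0045 to 2.50 in OIR mice of P28 and from 0.019 to 3.35 in control mice of P28, against 0.0078 to 0.88 in OIR and −0.012 to 1.14 in control mice of P17. *Best1* of the pigment epithelium, *Pax2* of the astrocytes and the ligand gene *Wnt3a* were well above background on 0 of 77 arrays. The rod genes *Sag*, *Gnat1*, *Pde6b*, *Pde6g* and *Nrl* did not pass between OIR and control mice on any day. The part of such tissue in the values of the 10 genes was not tested.

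Markers also differed between control mice of P28 and P17. Of 16 endothelial genes 1 was higher and 2 lower on P28, *Flt1* (0.51 ± 0.16), *Cd34* (−1.02 ± 0.12) and *Cdh5* (−0.32 ± 0.080, but −0.069 within the other scan days), and the median of the list was −0.043. Of 9 mural genes 5 were lower and none was higher, with a median of −0.38. At least 1 of these 5 did not pass with the slide as a block (adjusted p = 0.0632). Of 8 pigment epithelium genes 2 were lower, *Rpe65* by −0.72 ± 0.16. Of 5 red blood cell genes 2 were higher and 1 lower, and of 6 lens genes 1 was higher. Of 8 Mueller glia genes 1 was lower, and of 5 astrocyte genes 1. The lower red blood cell gene and the lens gene did not pass with the slide as a block (adjusted p = 0.123 and 0.217). Over all 21154 genes, 2493 were higher and 1549 lower. Of the rod genes named above, *Pde6b* was higher by 1.09 ± 0.24, while *Pde6g* (−1.27 ± 0.43) and *Nrl* (−1.42 ± 0.45) were lower. Within the other scan days *Pde6g* and *Nrl* differed by −0.027 and −0.072, and in the retina channel alone by 0.15 and 0.12. *Pde6b* turned its sign in 3 of 13 alternatives. It was −0.15 at an offset of 0, and further below 0 in the deposited ratios with and without the slide as a block. The part of these markers in the differences of *Plvap*, *Lef1* and *Mfsd2a* between control mice was not tested.

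Finally, the genes most like each of the 10 were named among 11906 genes well above background on at least 39 arrays, by the Pearson correlation over 77 arrays (76 for *Fzd4*, and for *Axin2* with *Slc4a10* and *Apcdd1* with *Zfp219*) after the group means were subtracted. The points share slides and the brightness of the scan day. *Tspan12* was most like *Tmem35a* (r = 0.97, Spearman correlation 0.958), *Sybu* and *Dapk1*, and *Ndp* was most like *Lrrn1* (r = 0.954, Spearman 0.928), *Adra2c* and, again, *Tmem35a*. *Lrp5* was most like *Epn3* (r = 0.959, Spearman 0.956), *Nkg7* and *Nudt5*. After the slide means were subtracted too, a step chosen after seeing the data, the highest r was 0.887 for *Ndp* with *Lrrn1*, 0.93 for *Tspan12* with *Zfp521* and 0.926 for *Lrp5* with *1700028I16Rik*.

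*Lef1* was most like *Tgif1* (r = 0.909, Spearman 0.88), *Rad51ap1* and *Tnfrsf23*, and *Sox17* most like *Hecw2* (r = 0.88, Spearman 0.782), *Chrdl1* and *Folh1*. *Plvap* was most like *Car11* (r = 0.819, Spearman 0.786), *Jph3* and *Tppp3*, and *Mfsd2a* most like *Lrp12* (r = 0.834, Spearman 0.632), *Zfp704* and *B4galt6*. *Fzd4* was most like *Pcdhb14* (r = 0.834, Spearman 0.726), *Mxd1* and *Atp6v0a2*, *Axin2* most like *Aff4* (r = 0.799, Spearman 0.776), *Slc4a10* and *2610044O15Rik8*, and *Apcdd1* most like *C1qa* (r = 0.815, Spearman 0.728), *Fbll1* and *Zfp219*. With the slide means subtracted, the gene most like *Plvap* was *Bcam* (r = 0.759) and that most like *Mfsd2a* was *Chmp7* (r = 0.718). No endothelial marker of the list was among the 3 most like genes of any of the 10. *C1qa*, named above for *Apcdd1*, belongs to the list of microglia and macrophages.

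The promoters of *Lef1* and *Mfsd2a*, both lower in control mice of P28 than of P17, are shown to give the sequence in front of these genes. Promoter sequences of RefSeq (build GRCm38.p6) were found for *Ndp*, *Fzd4*, *Tspan12*, *Lef1*, *Axin2* and *Mfsd2a*, and the 250 bases before the gene start were searched on both strands for the TCF/LEF motifs CTTTGAT and CTTTGTT and for ACGTG, the core of hypoxia response elements. Over 32851 promoters of the same length, 3.21% held CTTTGAT, 5.03% CTTTGTT and 16.6% ACGTG. Of the sequences of these 6 genes none held either TCF/LEF motif, while *Mfsd2a* held ACGTG at 2 sites and the last of 4 listed starts of *Lef1* held 1 CACGTG, which reads ACGTG on both strands. The first listed start of *Lef1* lies on the plus strand (chr3:131110047-131110296) and that of *Mfsd2a* on the minus strand (chr4:122961189-122961438), and capitals mark ACGTG.
Lef1: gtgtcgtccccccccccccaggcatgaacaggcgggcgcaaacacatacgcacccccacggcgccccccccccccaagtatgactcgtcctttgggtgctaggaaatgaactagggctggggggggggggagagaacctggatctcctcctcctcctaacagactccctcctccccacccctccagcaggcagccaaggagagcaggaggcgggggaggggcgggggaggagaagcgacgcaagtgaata
Mfsd2a: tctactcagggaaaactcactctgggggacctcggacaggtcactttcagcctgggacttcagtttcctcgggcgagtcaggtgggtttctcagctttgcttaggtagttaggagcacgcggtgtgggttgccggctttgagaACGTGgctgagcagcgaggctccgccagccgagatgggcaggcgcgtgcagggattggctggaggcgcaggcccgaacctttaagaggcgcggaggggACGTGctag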

How the data were processed

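Per the file headers, the authors scanned the arrays and extracted median signals and local backgrounds as intensity values with Agilent Feature Extraction 10.7.3.1, together with its outlier and background flags. The table of log2 ratios deposited by the authors holds Cy3 over Cy5 of the processed signals (100% of values within 0.001 on every array), with column medians from −0.13 to 0.0092. Median signals were corrected by normexp (offset 50) and normalized by loess within arrays in limma 3.58.1 (R 4.3.3), outlier spots were left out, and 55681 probes were tested without a filter on brightness. OIR and control mice were compared per day with limma, and changes between days in 1 model of 6 groups. P-values were adjusted over all probes by Benjamini-Hochberg, with a threshold of 0.05. The brightest probe stood for a gene. Of each list, up to 4 genes that passed with the largest change and 2 bright genes that did not could be named. Symbols came from RefSeq accessions (GRCm38.p6), which matched 28026 probes. The number of mice limits the precision. The fits were tested on simulated data. All columns were matched to a sample (0 unmapped). The genes and lists were chosen with earlier results of these data known. The alternatives tried left out the background subtraction or used an offset of 0, the deposited ratios, the retina channel alone, slide or scan day as a block, dim probes left out, array weights, trend and robust estimation, sex read from the arrays as a covariate, 1 fit over all groups, and subsets of scan days.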

Additional observations from a re-analysis of the deposited data

Results flagged for a closer look

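None of the 10 genes had an OIR effect whose change between days passed the test. Among the marker and list genes given by name, the change of the OIR effect from P12 to P17 passed for *Cd34* (2.14), *Hba-a1* (2.08), *Egfl7* (1.95), *Vim* (1.18), *Gfap* (0.94), *Eng* (0.80) and *Abcc9* (0.62). From P17 to P28 it passed for *Hba-a1* (−1.53), *Egfl7* (−1.13), *Cd34* (−1.07), *Vim* (−0.98), *Gfap* (−0.61), *Eng* (−0.54) and *Slc22a8* (0.24). The effects of both pairs of days share the P17 mice.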

How the results depend on the processing

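With the alternatives, *Plvap* stayed higher in control mice of P28 than of P17 in 14 of 14 alternatives (0.061 to 0.58) and passed in 13. *Lef1* kept its direction there in 14 of 14 (−0.61 to −0.21) and passed in 13, and *Mfsd2a* in 13 of 13 (−0.74 to −0.030) and passed in 11. The P17 difference of *Plvap* kept its direction in 15 of 15 (0.043 to 0.86) and passed in 10. Fits by scan day were chosen after seeing the data. No paired analysis was possible because no mouse number is shared between groups.

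The number of the 10 genes called differed as follows. On P12, against 0, it was 1 with the deposited ratios (0.07% of all probes) and 1 with the retina channel alone (0.0718%), against 0.0233%. On P17, against 1, it was 2 with an offset of 0 (1.65% of all probes, against 1.13%), the deposited ratios (2.64%), the retina channel alone (3.04%), array weights (2.49%) and scan day as a block (1.79%), and 0 with the slide as a block (1.49%), with the deposited ratios and that block (2.22%), on the brightest scan day only (0.0198%) and on the other scan days only (0.864%). On P28, the 2 OIR arrays of the other scan days were read on other days than the control arrays. In the fit of these scan days only, the number was 1, *Lef1*, against 0, where 8.2% of all probes passed against 0.0611%. For the change of the effect from P12 to P17, against 0, it was 1 with an offset of 0 (1.01% of all probes, against 0.48%), the deposited ratios with (2.01%) and without (1.39%) the slide as a block, the slide as a block (0.941%), array weights (1.29%) and scan day as a block (0.83%), and 2 with the retina channel alone (1.75%). From P17 to P28, against 0, it was 1 with an offset of 0 (0.431%, against 0.278%) and 2 with the retina channel alone (1.02%). For control mice it was 2 with the retina channel alone (3.12%, against 1.28%) between P12 and P17, against 0, and 4 with the deposited ratios (19.7% of all probes) and the retina channel alone (15%), 6 with array weights (34.1%) and 1 on the other scan days only (1.89%) between P17 and P28, against 3 (13.4%). The cause of these differences was not tested.

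Of all values given under the alternatives, 135 turned their sign, and all but that of *Sox17* under array weights in control mice from P17 to P28 missed the threshold under the alternative. Each is given with its value. The list genes given by name are fewer than the rule allowed and were narrowed after the values under the alternatives were seen. The rule allowed 268 values of list genes, of which 60 are given with their alternatives. The P17 value of *Cldn12* is given beside these 60 and is not counted among them. For the 268 values, 471 of 3583 alternatives turned the sign. For these 60, 7 of 805 did.

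Without background subtraction, the sign turned for *Axin2* (0.015), *Plvap* (0.0019) on P12, and for *Fzd4* (−0.013) in control mice from P17 to P28. At an offset of 0, the sign turned for *Axin2* (0.062), *Plvap* (0.049) on P12, and for *Tspan12* (0.074) on P17, and for *Ndp* (−0.36), *Plvap* (−0.070), the dimmer probe of *Sox17* (−0.059) on P28, and for *Sox17* (0.38) in the change from P12 to P17, and for *Fzd4* (−0.071) in the change from P17 to P28, and for *Fzd4* (−0.25), *Pde6b* (−0.15), *Sox17* (0.28) in control mice from P17 to P28. In the deposited ratios, the sign turned for *Fzd4* (0.14), *Plvap* (0.035) on P12, and for *Ndp* (−0.36) on P28, and for *Sox17* (0.53) in the change from P12 to P17, and for *Fzd4* (−0.093) in the change from P17 to P28, and for *Fzd4* (−0.17), *Pde6b* (−1.0), *Sox17* (0.32) in control mice from P17 to P28. In the retina channel alone, the sign turned for *Apcdd1* (0.081), *Axin2* (0.0071), *Fzd4* (0.051), *Plvap* (0.027) on P12, and for *Axin2* (0.0033), *Tspan12* (0.031) on P17, and for *Apcdd1* (−0.0093), *Plvap* (−0.075) on P28, and for *Sox17* (0.10) in the change from P12 to P17, and for *Fzd4* (−0.098) in the change from P17 to P28, and for *Fzd4* (−0.10), *Nrl* (0.12), *Pde6g* (0.15) in control mice from P17 to P28. Under the slide block, the sign turned for *Apcdd1* (0.010), *Axin2* (0.018), *Lrp5* (−0.023), *Ndp* (0.016), *Plvap* (0.010) on P12, and for *Tspan12* (0.042) on P17, and for *Axin2* (−0.012), *Fzd4* (−0.040) in control mice from P17 to P28. Under array weights, the sign turned for *Apcdd1* (0.028), *Axin2* (0.0033), *Lrp5* (−0.067), *Plvap* (0.018) on P12, and for *Tspan12* (0.0062) on P17, and for *Lef1* (−0.017) on P28, and for *Lef1* (−0.0022), *Tspan12* (−0.015) in control mice from P12 to P17, and for *Sox17* (0.092), *Tspan12* (0.22) in control mice from P17 to P28. Adjusted for sex, the sign turned for *Axin2* (0.0028) on P12. In the deposited ratios with the slide block, the sign turned for *Apcdd1* (0.20), *Axin2* (0.18), *Fzd4* (0.21), *Lrp5* (−0.029) on P12, and for the dimmer probe of *Sox17* (0.0080), *Tspan12* (0.089) on P17, and for *Ndp* (−0.39) on P28, and for *Sox17* (0.47) in the change from P12 to P17, and for *Fzd4* (−0.13), *Ndp* (−0.17) in the change from P17 to P28, and for *Axin2* (−0.047), *Tspan12* (−0.029) in control mice from P12 to P17, and for *Fzd4* (−0.23), *Pde6b* (−0.68) in control mice from P17 to P28. By the other probe of the gene, the sign turned for *Axin2* (0.0069), *Lef1* (0.12), *Plvap* (0.012) on P12, and for *Lef1* (−0.11) on P28, and for *Plvap* (−0.015) in control mice from P12 to P17, and for *Sox17* (0.0036) in control mice from P17 to P28. Under the scan day block, the sign turned for *Apcdd1* (0.0031), *Axin2* (0.014), *Fzd4* (0.0065), *Plvap* (0.0098) on P12, and for *Apcdd1* (0.0038), *Tspan12* (0.11) on P17, and for the dimmer probe of *Sox17* (−0.0033) on P28, and for *Tspan12* (−0.028) in control mice from P12 to P17, and for *Axin2* (−0.025), *Fzd4* (−0.052) in control mice from P17 to P28. On the brightest scan day only, the sign turned for *Axin2* (0.047), *Fzd4* (0.27), *Ndp* (0.013) on P12, and for *Apcdd1* (0.087), *Lrp5* (−0.16), *Ndp* (0.0056), the dimmer probe of *Sox17* (0.035), *Tspan12* (0.18), *Wnt5a* (0.085) on P17, and for the dimmer probe of *Sox17* (−0.0033) on P28, and for *Apcdd1* (0.089), *Lrp5* (−0.18), *Sox17* (0.14) in the change from P12 to P17, and for *Apcdd1* (−0.010), *Fzd4* (−0.17), *Lrp5* (0.15) in the change from P17 to P28, and for *Axin2* (−0.024), *Fzd4* (−0.0089), *Ndp* (−0.11) in control mice from P17 to P28. On the other scan days only, the sign turned for *Apcdd1* (0.0044), *Axin2* (0.0028), *Lrp5* (−0.030), *Plvap* (0.0014) on P12, and for *Axin2* (0.024), *Tspan12* (0.14) on P17, and for *Apcdd1* (−0.048), *Axin2* (−0.061), *Fzd4* (−0.17), *Lrp5* (0.14), *Mfsd2a* (−0.10), *Ndp* (−0.27), *Plvap* (−0.29), *Sox17* (−0.027), *Tspan12* (−0.12) on P28, and for *Axin2* (0.021), *Ndp* (0.0045), *Sox17* (0.011) in the change from P12 to P17, and for *Apcdd1* (−0.016), *Axin2* (−0.085), *Fzd4* (−0.21), *Lef1* (0.25), *Mfsd2a* (−0.0014), *Ndp* (−0.24), *Slc22a8* (−0.021), *Sox17* (−0.0093), *Tspan12* (−0.25) in the change from P17 to P28, and for *Ndp* (−0.055), *Tspan12* (−0.12) in control mice from P12 to P17, and for *Fzd4* (−0.013), *Sox17* (0.012), *Tspan12* (0.017) in control mice from P17 to P28. Dim probes, such as those of *Sox17*, *Axin2* and *Apcdd1*, are limited by their signal over background.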
